A study of Mus musculus with 4 samples.

Results

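The genes described here belong to retinoic acid handling and the start of meiosis: the retinol carrier gene Rbp4, the retinoic acid-binding protein gene Crabp1, the retinoic acid target Stra8, the homeobox gene Rhox13 and the recombinase gene Dmc1. They were taken by name from the authors' deposited table of differing probe sets, where each of the 5 genes had 1 probe set, out of 227 genes with a name there and 45037 non-control probe sets on the arrays. That table, filtered on the difference, was the one source of probe set names used here, so other probe sets of these genes on the arrays, if any, were not analysed here. Rhox13 stood in it under its older symbol, 1700123J19Rik. The arrays held RNA of cells sorted from 2-week-old mouse testes, with a Sox2GFP reporter on a mixed 129SvJae/BL6 background. Sox2GFP+ckit+ cells (ckit+ cells for short) and Sox2GFP+ckit- cells (ckit- cells for short) were each measured on 2 arrays, given as biological replicates, and each array used RNA of 1 pool of 20 testes. All 4 samples share the reporter, the age and the sort on reporter fluorescence, so no reporter-negative cells were compared. The labels describe the ckit+ cells as unable, and the ckit- cells as able, to rebuild damaged tubules.

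Retinol travels in blood bound to RBP4, is oxidised inside cells to retinoic acid, and is bound in the cytoplasm by proteins such as CRABP1. In the mouse testis retinoic acid drives spermatogonia to become KIT-positive and differentiate, and later to enter meiosis. Stra8 is its best known target there, and its protein acts with MEIOSIN to switch on meiotic genes. DMC1 is the recombinase that pairs broken DNA with the homologous chromosome in meiotic prophase.

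All 5 genes had higher values in both ckit+ arrays than in either ckit- array. The log2 differences, ckit+ minus ckit-, were 1.76 for Crabp1, 1.70 for Stra8, 1.52 for Rbp4, 1.10 for Rhox13 and 0.95 for Dmc1. The genes were chosen by their pathway from a table whose probe sets had been selected on the ckit+ against ckit- difference, at least 2-fold on the same 4 arrays. The differences are therefore a description, with limma's standard error (SE) and without a test. Over all probe sets, both ckit+ arrays lay above both ckit- arrays in 24.5%, the populations did not overlap in either direction in 48.6%, and 0.675% were at least 2-fold higher in ckit+ cells.

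The sequences before the starts of these genes are shown because retinoic acid receptors bind DNA at short half-sites. The 250 bases before each RefSeq start (GRCm38.p6) were searched on both strands for AGGTCA, the consensus half-site of many nuclear receptors, and for 3 variants of it: AGTTCA (in 11.8% of all windows of this length), GGTTCA (in 8.85%) and GGGTCA (in 11.6%). Capitals mark a match.
Stra8, chr6:34920698-34920947, plus strand: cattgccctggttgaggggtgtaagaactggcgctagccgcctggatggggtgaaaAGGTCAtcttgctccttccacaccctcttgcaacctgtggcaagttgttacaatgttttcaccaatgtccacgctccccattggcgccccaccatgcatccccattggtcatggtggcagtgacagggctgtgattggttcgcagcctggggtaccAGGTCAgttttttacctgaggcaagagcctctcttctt
Dmc1, chr15:79605110-79605359, minus strand: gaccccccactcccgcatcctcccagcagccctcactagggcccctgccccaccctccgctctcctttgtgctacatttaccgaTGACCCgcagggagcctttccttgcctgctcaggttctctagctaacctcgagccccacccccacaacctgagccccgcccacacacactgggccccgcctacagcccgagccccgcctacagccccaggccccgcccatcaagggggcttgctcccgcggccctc
Rbp4, chr19:38125322-38125571, minus strand: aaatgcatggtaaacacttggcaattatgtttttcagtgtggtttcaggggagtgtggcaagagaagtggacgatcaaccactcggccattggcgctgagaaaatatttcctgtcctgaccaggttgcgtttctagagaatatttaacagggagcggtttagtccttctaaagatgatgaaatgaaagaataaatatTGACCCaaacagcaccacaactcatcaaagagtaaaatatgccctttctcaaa

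The Stra8 window held 2 copies of AGGTCA, both in the direction of transcription, with their first bases at -194 and -38 from the start. Among 32851 promoter windows of the same length, 14% held AGGTCA at least once and 1.36% at least 2 times. Dmc1 and the Rbp4 start with the higher coordinate each held 1 GGGTCA on the opposite strand, at -166 to -161 and -53 to -48. The other Rbp4 start, Crabp1 and Rhox13 held none of the 4 half-site forms, while 38.6% of all windows held at least 1. CNCCTCAG, a motif bound by STRA8 with MEIOSIN in mouse, was in none of the 6 windows of the 5 genes and in 6.42% of all windows. These matches describe letters in a window and say nothing about binding in these cells. No half-site form overlapped another in the windows shown.

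**Figure D1:**
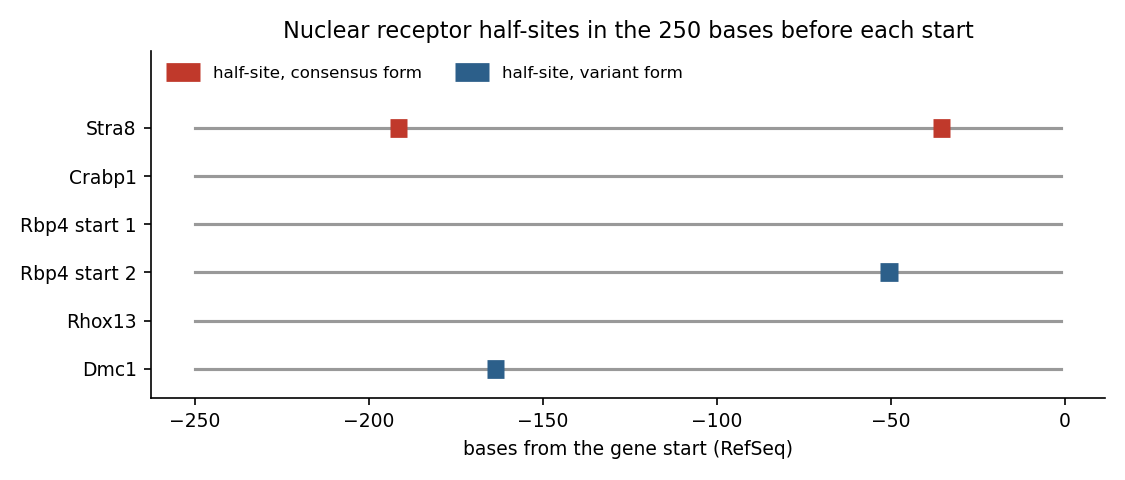
Positions of nuclear receptor half-sites in the 250 bases before each RefSeq start, with the distance from the start on the horizontal axis in bases and 1 line per start (Rbp4 has 2 starts). The consensus form (red) appears at -194 and -38 in Stra8, and the variant form (blue) once in Dmc1 and once in Rbp4.

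Rbp4 encodes the carrier of retinol in plasma. Its probe set (1426225_at) read 9.52 and 9.36 in ckit+ cells, against 8.01 and 7.83 in ckit- cells (log2 RMA values). The lowest ckit+ array lay 1.35 above the highest ckit- array, while arrays within a population were 0.16 apart in ckit+ and 0.18 apart in ckit- cells. The ckit+ mean was 2.87 times the ckit- mean (log2 difference 1.52 ± 0.17, SE, n = 2 arrays per population). The difference ranked 48th of all probe sets, counted from the highest.

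Crabp1 encodes the cytoplasmic retinoic acid-binding protein. Values of its probe set (1448326_a_at) were 11.76 and 11.57 in ckit+ cells and 10.07 and 9.75 in ckit- cells. The populations stood 1.51 apart at their nearest arrays, more than the 0.18 between the ckit+ and the 0.32 between the ckit- arrays. Crabp1 was higher in ckit+ cells by 3.38-fold, a log2 difference of 1.76 ± 0.19 (SE, n = 2). By this difference Crabp1 ranked 26th of all probe sets and first of the 5 genes.

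The retinoic acid list held 27 genes of retinol transport, retinoic acid synthesis, breakdown and reception, with Rbp4, Crabp1 and Stra8 among them. Receptors, synthesis enzymes and the CYP26 enzymes that break down retinoic acid carried no name in the authors' deposited table and were not analysed here.

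Stra8 is a gene induced by retinoic acid. Its probe set (1420568_at) read 12.999 and 13.135 in ckit+ cells, against 11.33 and 11.41 in ckit- cells. The nearest arrays of the populations were 1.59 apart, and those within a population 0.14 (ckit+) and 0.08 (ckit-). Over all probe sets the median distance within a population was 0.19 in ckit+ and 0.21 in ckit- cells. The fold, ckit+ over ckit-, was 3.25 (log2 difference 1.70 ± 0.16, SE, n = 2). It ranked 29th of all probe sets by this difference.

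Rhox13 is an X-linked homeobox gene of the reproductive homeobox cluster. The probe set (1443844_at) read 11.25 and 11.21 in ckit+ cells, against 9.96 and 10.29 in ckit- cells. Here the spread lay mostly in ckit- cells, whose arrays were 0.33 apart, while the ckit+ arrays were 0.05 apart. The fold, ckit+ over ckit-, was 2.15 (log2 difference 1.10 ± 0.18, SE, n = 2). The nearest arrays of the populations were 0.91 apart, and the difference ranked 201st. Of 12 listed Rhox genes 2 were named, the other being Rhox2a. The Rhox2a probe set read 10.17 and 9.92 in ckit+ cells and 9.09 and 9.28 in ckit- cells (log2 difference 0.86 ± 0.18, SE, n = 2). Rhox2a has closely similar gene copies beside it, and its probe set may read several of them.

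Dmc1 had the smallest difference of the 5. Its probe set (1449819_at) read 9.07 and 8.83 in ckit+ cells, against 8.0016 and 8.0012 in ckit- cells. The ckit- arrays differed by 0.00041, a closer agreement than in all but 0.158% of probe sets, and the ckit+ arrays by 0.24. The nearest arrays of the populations were 0.83 apart, and the difference ranked 383rd. The ckit+ mean was 1.93 times the ckit- mean (log2 difference 0.95 ± 0.17, SE, n = 2), just under the 2-fold threshold that the authors' deposited table applied to its own values. Of 37 genes listed for meiosis, Dmc1 and Stra8 were the 2 with a name. Both are among the 5 genes chosen here, so the list adds no further gene to their differences. Cohesins, synaptonemal complex proteins and the enzymes of DNA breakage were not analysed here.

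**Figure D2:**
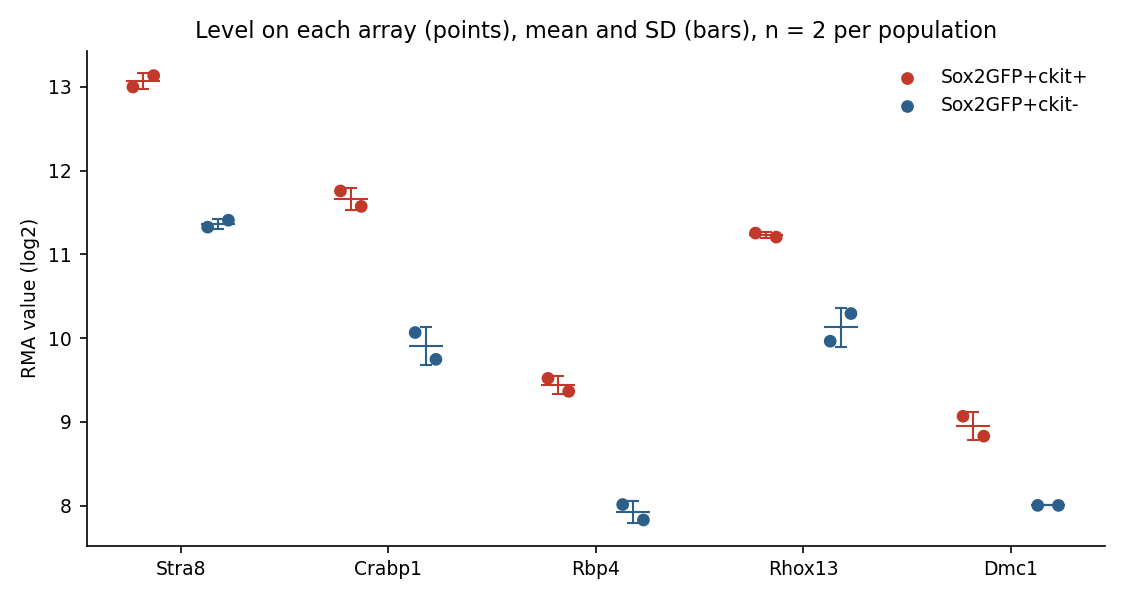
Log2 RMA values of the 5 genes on each array, ckit+ cells (red) left of ckit- cells (blue), with points for arrays and bars for the mean and SD of 2 arrays. In each gene both ckit+ points lie above both ckit- points, from a gap of 0.83 in Dmc1 to 1.59 in Stra8. Levels of different genes are not comparable, since each probe set has its own brightness.

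Among genes listed for differentiating spermatogonia, 5 of 14 were named: Kit, Stra8, Crabp1, Rhox13 and the DNA methyltransferase gene Dnmt3b. Log2 differences of these 5 genes, ckit+ minus ckit-, ran from 1.10 to 2.83. Dnmt3b read 9.13 and 8.93 in ckit+ cells, against 7.92 and 7.94 in ckit- cells (log2 difference 1.10 ± 0.16, SE, n = 2). Kit encodes the protein used for sorting, so the direction of its difference serves as a check of the labels. Its size does not, since the Kit probe sets too were named through the authors' deposited table, filtered on this difference. One Kit probe set (1452514_a_at) had values of 9.68 and 9.62 in ckit+ cells, against 6.87 and 6.78 in ckit- cells. The other (1415900_a_at) read 7.91 and 8.27 in ckit+ cells, against 6.22 and 5.44 in ckit- cells.

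Markers of other cells and the control probe sets were read beside these values. The list of undifferentiated spermatogonia held 20 genes, of which 11 had a name. All 11 of 11 were lower in ckit+ cells (log2 differences of -2.24 to -1.06). The single named endothelial gene of 7, Plvap, was lower in ckit+ cells too, by a log2 difference of -1.45. In every list a gene had a name only through the authors' deposited table, filtered on this difference. Naming therefore favoured large differences, and listed genes without a name could not enter these counts. Of the 215 other named genes compared by profile below, 102 had higher values in ckit+ cells. None of the genes listed for germ cells in general, Sertoli, Leydig, peritubular or stromal cells, macrophages, leukocytes or mast cells carried a name, so their levels were not analysed here. The GAPDH control probe sets read 2.45 and 2.59 higher at the 3′ than at the 5′ end in ckit+ arrays, against 2.68 and 2.61 in ckit- arrays. For beta-actin the ckit+ arrays gave 0.02 and -0.27, against -0.11 and -0.19 for the ckit- arrays. The part of any of these in the differences above was not tested. In sorted bulk cells, fewer cells that contain a transcript and less of it per cell cannot be told apart.

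**Figure D3:**
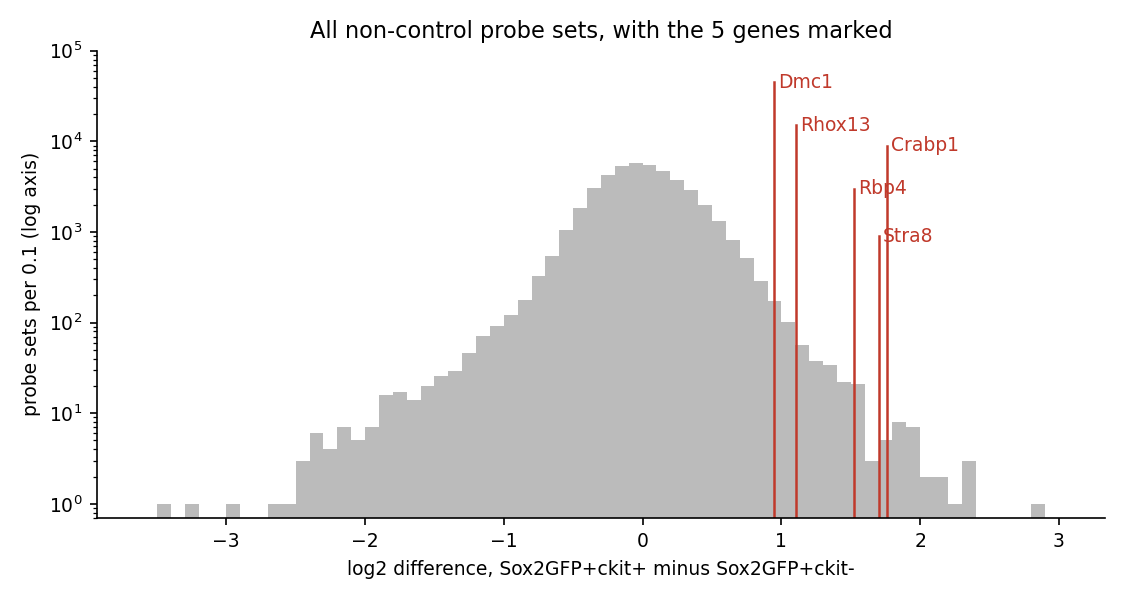
Number of probe sets (log axis) by log2 difference, ckit+ minus ckit-, in bins of 0.1, for all 45037 non-control probe sets, with the 5 genes marked by lines whose heights have no meaning. The genes lie between 0.95 (Dmc1) and 1.76 (Crabp1), and the median of all probe sets is -0.005.

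In the fit across all probe sets (limma, Benjamini-Hochberg adjusted p under 0.05), 3 of the 5 genes were among those called higher in ckit+ cells: Stra8, Crabp1 and Rbp4. Calls in that direction made up 0.115% of all probe sets, and calls in either direction 0.309%. These genes were listed for this same contrast, so the count is given without any reading. With any 1 of the 4 arrays left out, 0 of the 5 genes and 0 probe sets in all were called by limma, while 4513 to 6422 probe sets had an unadjusted p under 0.05.

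The genes were compared by their profile over the 4 arrays, measured as the Euclidean distance between values after subtracting each probe set's mean (log2). Crabp1, Rbp4 and Stra8 were 0.26 to 0.37 apart from each other, and Rhox13 and Dmc1 0.31. Distances from Crabp1, Rbp4 or Stra8 to Rhox13 or Dmc1 were 0.56 to 0.84. The size of the population difference enters this distance. That difference was 1.76, 1.52 and 1.70 for Crabp1, Rbp4 and Stra8, against 1.10 for Rhox13 and 0.95 for Dmc1. These distances therefore largely restate the differences and do not show separate groups.

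Among 215 other named genes, those with the profiles nearest to each member were found by the same distance. Nearest to Stra8 were Serpine2, a secreted protease inhibitor, at 0.17 and the annexin gene Anxa4 at 0.19. The median over the 102 of these genes with higher values in ckit+ cells was 0.59. For Crabp1 they were the RNA-binding protein gene Mbnl3 at 0.10 and Tc2n, a gene of tandem C2 domains, at 0.19 (median 0.63). For Rbp4 they were the transcription factor gene Mitf at 0.06 and Tbc1d24 at 0.09 (median 0.44). Mitf read 7.90 and 7.75 in ckit+ cells, against 6.39 and 6.13 in ckit- cells, so that both genes were higher in replicate 1 than in replicate 2 of either population. For Rhox13 they were Decr1, which encodes a mitochondrial enzyme of fatty acid oxidation, at 0.035 and the sorting nexin gene Snx16 at 0.07 (median 0.39). For Dmc1 they were Socs6, a suppressor of cytokine signalling, at 0.08 and Nrip3 at 0.10 (median 0.38). With 4 arrays these distances only describe the arrays.

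**Figure D4:**
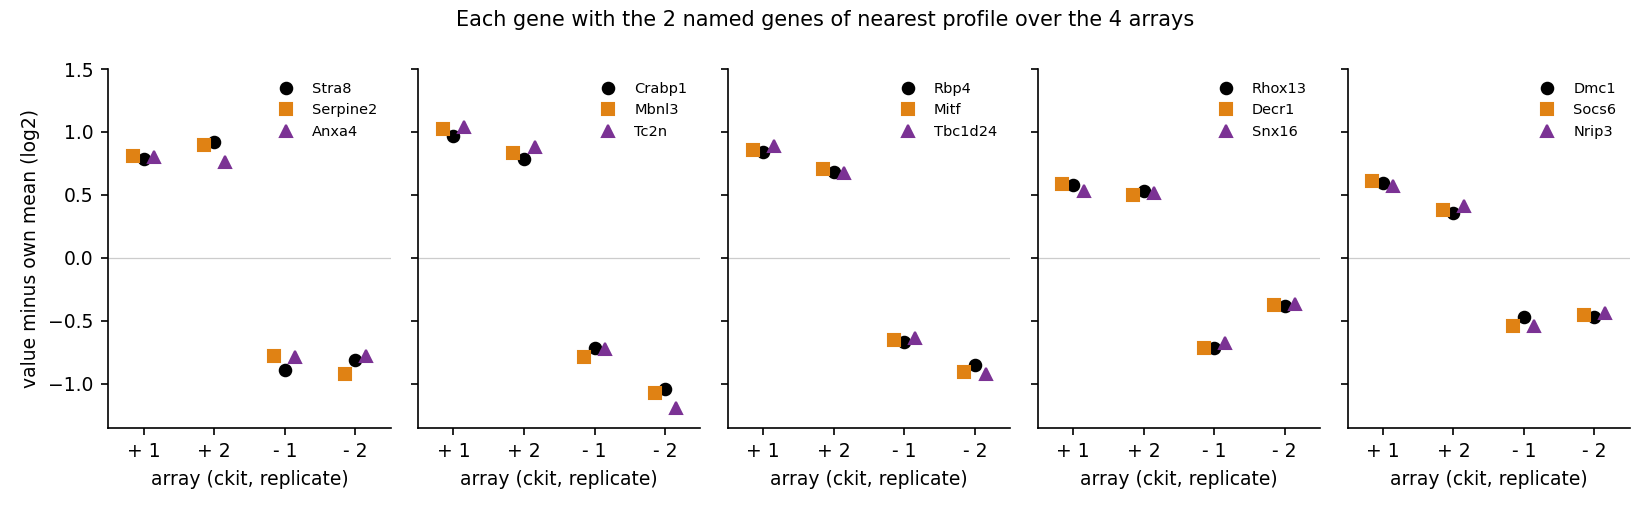
Log2 value minus the probe set's own mean on each array (ckit+ replicates 1 and 2, then ckit- replicates 1 and 2) for each of the 5 genes (circles) and the 2 named genes of nearest profile (squares and triangles). The nearest match is Decr1 to Rhox13, at a distance of 0.035.

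The authors' deposited table held other values for the same arrays, and Stra8 was where they differed most among the 5 genes. Its means in the authors' deposited table were 12.63 in ckit+ and 10.52 in ckit- cells, 2.11 apart on the log2 scale, against 13.07 and 11.37, 1.70 apart, in the RMA values. Of the 374 probe sets in the authors' deposited table, 1 had a larger gap between these 2 versions of its difference. Over all 374 the version in the authors' deposited table minus the RMA version was -0.003 at the median and ran from -0.40 to 0.64. For Crabp1, Rbp4, Rhox13 and Dmc1 the authors' deposited table gave log2 differences of 1.63, 1.51, 1.09 and 1.05. For Dmc1 in ckit- cells the standard error of the mean was 0.00021 in the RMA values and 0.13 in the authors' deposited table.

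**Figure D5:**
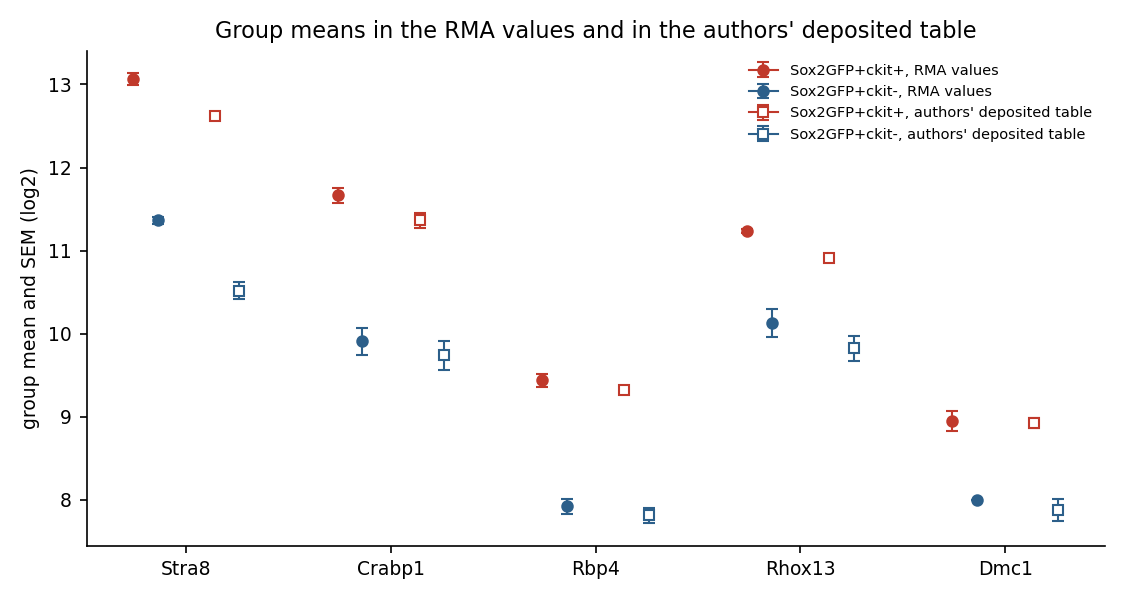
Group means with the standard error of the mean (log2) in the RMA values (filled circles) and in the authors' deposited table (open squares), ckit+ cells (red) left of ckit- cells (blue). Stra8 differs most between the versions, with a ckit- mean of 11.37 in the RMA values and 10.52 in the authors' deposited table.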

How the data were processed

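The deposited value table held log2 values that the authors had made with RMA, which corrects background, applies quantile normalization and summarises probes, per the submitters' processing notes. The sources used here give neither its version nor the array model. Quantile normalization hides a shift of all transcripts between populations. The authors' deposited table of 374 probe sets, of which 260 could be named here, holds group means and SEMs on the log2 scale. The authors ran a t-test on log-transformed data, adjusted 605 p-values by Benjamini-Hochberg and kept 2-fold changes, per the file headers. The sources used here do not give the normalization of these means. Its fold and p columns were not read.

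The arrays held 45101 probe sets, and 64 control probe sets were left out of the fit. Between 20000 and 90000 cells gave each sample, and 5 ng of RNA was labelled. Array medians were 6.39 to 6.42. Upper quartiles were 8.12 and 8.15 in ckit+ arrays, against 8.05 and 7.99 in ckit- arrays. Limma 3.58.1 in R 4.3.3 (lmFit, eBayes, checked on simulated data) was fitted to the other 45037 probe sets without filter or covariate. SEs of the log2 differences are limma's, which blend each probe set's own spread between pools with a value shared over all probe sets. They cover no variation beyond that between pools, and having 2 arrays a population limits the precision. The smallest two-sided p of an exact permutation test here is 0.333. Names came from accessions (61 probe sets), symbols (88), older symbols (13) and full names matched by hand (98), through RefSeq genes of GRCm38.p6, which also gave the promoter sequences. All 5 genes had a promoter entry. Besides the 5 genes, the text names Kit, the named members of the 4 gene lists of this pathway (1 is not reported here) and the 2 genes nearest in profile to each, leaving out RIKEN, Gm, LOC, EST and predicted names. Plvap came from the cell type markers. Members, lists and motifs were chosen with earlier results of these data known. Deviations from the population means correlated at 0.26 between the arrays numbered 1, over 45037 probe sets. With 2 arrays a population, the deviations of the arrays numbered 2 mirror these, so that pair adds no further evidence. No label states that arrays of the same number share a litter, batch or day. Alternatives were another normalization, a filter on dim probe sets, a replicate block, an intensity trend and leaving out each array.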

Additional observations from a re-analysis of the deposited data

How the results depend on the processing

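The log2 differences of the 5 genes stayed positive with renewed quantile normalization and median centring. In this balanced design the replicate block leaves each difference unchanged. Leaving out 1 array cannot reverse its sign, since both ckit+ arrays lay above both ckit- arrays in every gene. These 2 settings therefore could not have changed the direction. The log2 differences were not computed anew for the filter on dim probe sets or the intensity trend. With 1 array left out they ranged from 1.63 to 1.77 for Stra8, 1.60 to 1.92 for Crabp1, 1.43 to 1.61 for Rbp4, 0.94 to 1.27 for Rhox13 and 0.83 to 1.07 for Dmc1. Renewed quantile normalization lowered the differences of all 5 genes. They became 1.67 for Stra8, 1.68 for Crabp1, 1.41 for Rbp4, 1.02 for Rhox13 and 0.82 for Dmc1. Only for Dmc1 was this move larger than the gene's replicate SD, which was 0.12. Each gene had 1 named probe set, so the mean of several was not run. The count of 139 probe sets called by limma was 554 under a replicate block and 419 under an intensity trend, and both then also called Rhox13, 4 of the 5 genes. This pairing by number is an alternative only. Renewed quantile normalization gave 133 calls, median centring 142 and the filter on dim probe sets 99, each with the same 3 of the 5 genes. Without any 1 array limma called 0 probe sets and 0 of the 5 genes, although 4513 to 6422 probe sets, and all 5 genes, had an unadjusted p under 0.05; the lone array is then assumed to vary like the other population. The counts for the 5 genes were added after seeing the data.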

Other observations

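The promoter search was also run on the lists, whether or not a gene had a name in the deposited table. Promoter windows were found for 29 of the 37 meiosis genes, and 7 of their 34 windows (20.6%) held AGGTCA, against 14% of all windows. Besides Stra8, 2 copies or more stood before Psmc3ip, whose product works with MND1 as a partner of DMC1 in strand exchange. CNCCTCAG stood in 4 of these 34 windows (11.8%, against 6.42% of all), before Hormad2, Msh5, Prdm9 and Syce2. Of the retinoic acid genes, 22 of 27 had windows, and AGGTCA stood in 6 of 37 (16.2%). Those genes were Stra8, Bco1, Rdh11, Rarg, Rxra and Rxrg, with 2 copies or more in Stra8, Bco1 and Rxra. For differentiating spermatogonia, CNCCTCAG stood in 5 of 17 windows (29.4%), which belonged to Lmo1, Prss50 and Sohlh2, and AGGTCA in 3 of 17 (17.6%). CNCCTCAG was below its share of all windows in the other two lists, with 2 of 37 retinoic acid windows (5.41%) and 0 of 9 Rhox windows. AGGTCA stood in 2 of the 9 Rhox windows (22.2%). Windows of 1 gene can overlap, so they are not independent, and expression of the genes without a name was not analysed here.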
